A study of Mus musculus with 3 samples.

Results

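The translation initiation factors are the proteins that bring the initiator transfer RNA, the small ribosomal subunit and a messenger RNA together at a start codon. The genes were taken from each library's larger gene table as the annotated protein-coding genes whose symbol begins with Eif and a digit. The eIF4E-binding protein genes (Eif4ebp), the eIF2 kinase genes (Eif2ak) and the Y-linked copy Eif2s3y were left out. This gave 47 of 22028 protein-coding genes, among 55536 annotated genes in all. The choice used names only and no measured value.

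The RNA came from regulatory T cells (Treg cells, Foxp3-dependent CD4 T cells that hold other immune cells in check) described as activated, taken from a male mouse aged 9 weeks. Polyadenylated RNA of 1 biosample was made into 3 libraries, called technical replicates 1, 2 and 3, from sheared material of 100 to 300 bases. The labels name no strain, transgene, activation agent or sorting gate. There was no second group, so the values are levels within these cells, and every SD over the 3 libraries is a technical one.

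Initiation begins when eIF2, loaded with GTP and the initiator transfer RNA, joins the small ribosomal subunit with eIF1, eIF1A, eIF3 and eIF5. The eIF4F complex binds the messenger RNA cap through eIF4E, unwinds the leader with the helicase eIF4A and is held together by the scaffold eIF4G. eIF5 then stimulates GTP hydrolysis on eIF2, eIF5B joins the large subunit, and eIF2B recharges eIF2 with GTP. Resting T cells translate little and raise protein synthesis when they are activated, which is why these factors are followed in T cell studies.

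Expected counts summed to 31445344, 32612609 and 37259281 in libraries 1, 2 and 3, and values given in threes below keep that order. The 6 Treg and T cell markers (Cd3e, Cd4, Foxp3, Il2ra, Ctla4 and Ikzf2) were all detected, from 135 ± 2.65 TPM for Foxp3 to 1274 ± 39.0 TPM for Cd3e. Of the 5 B cell markers 4 were detected, with a summed level of 36.7 to 50.9 TPM, and Pax5 stood at 0.06 to 0.11 TPM. Of the 4 myeloid markers 3 were detected, with a summed level of 38.6 to 43.1 TPM, and Cd14 at 0 to 0.58 TPM. Cd8a stood at 1.64 ± 0.594 TPM. The red cell transcripts Hbb-bs and Hba-a1 summed to 364 to 515 TPM. The part of other cells in the levels below was not tested, and in bulk RNA fewer cells of a type and less RNA per cell cannot be told apart.

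Nearly all initiation factor genes were transcribed, and most were well above the typical gene. Of the 47 genes, 46 were detected, meaning that each library gave them 1 TPM or more, where 47.3% of all protein-coding genes met that rule. There were 23 genes at 100 TPM or more, 21 between 10 and 100 TPM, and 2 between 1 and 10 TPM. Of detected protein-coding genes, 17.3% had a mean of 100 TPM or more. The median over the 47 genes was 90.8 TPM, against 29.2 TPM over detected protein-coding genes and 0.808 TPM over all protein-coding genes. Together the 47 genes held 8590 ± 18.3 TPM and 0.835% ± 0.00376 of expected counts. Eif1, Eif5a, Eif4g2 and Eif4a1 alone held 43.5% ± 0.482 of that TPM.

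**Figure D1:**
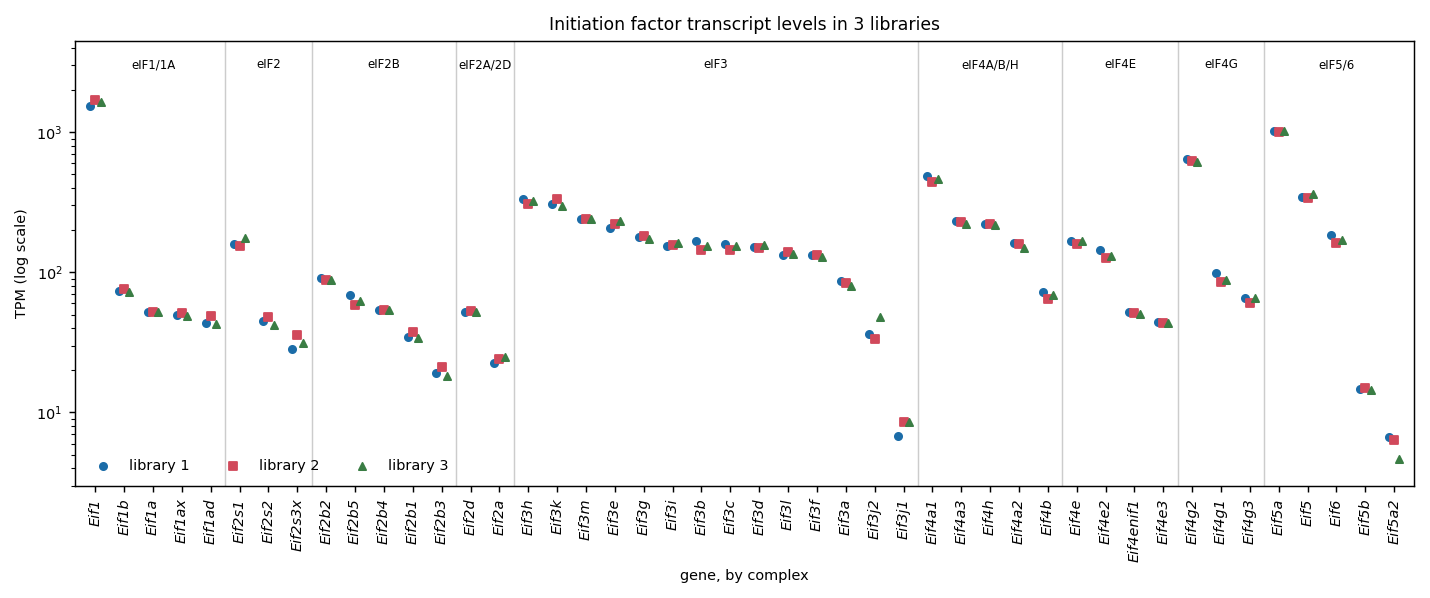
TPM on a log axis for the 46 detected initiation factor genes, with a point for each of the 3 libraries and genes grouped by complex and ordered by mean. Levels run from 4.62 TPM for Eif5a2 in library 3 to 1691 TPM for Eif1 in library 2, and the 3 points of most genes lie close together.

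The gene not detected was Eif4e1b, a relative of the cap-binding protein gene Eif4e known for its use in the egg. It had 0, 3 and 0 expected counts, and 3 counts would correspond to 0.167, 0.0784 and 0.139 TPM in the 3 libraries. These limits cover counting error only. It was not detectable at this depth.

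Among the factors that guide scanning, Eif1 was far above its relatives. Eif1 (ENSMUSG00000035530.13, mm10 chromosome 11, 100319885 to 100322096, plus strand) keeps the scanning ribosome selective for a correct start codon. It had 1543, 1691 and 1657 TPM and ranked 44 among all protein-coding genes. Its paralog Eif1b had 73.0, 75.6 and 71.9 TPM, so the libraries of the pair did not overlap. On the log2 scale Eif1 stood 4.47 ± 0.06 above Eif1b, a 22.2-fold higher level by TPM. The difference was 3.65 by CPM (a count scaled to the library total with no length correction) and 2.41 over protein-coding transcripts. In the smaller gene table, a separate count of the same libraries, it was -0.71, so the direction did not hold there.

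The eIF1A proteins bind beside eIF1 on the small subunit, and here an autosomal and an X-linked gene encode them. Eif1a had 52.3, 52.4 and 52.0 TPM and Eif1ax had 49.7, 51.3 and 48.4 TPM. Eif1a over Eif1ax gave a log2 ratio of 0.07 ± 0.04, positive in each library but less than 2 SD from 0. Counting only transcripts annotated as protein coding, Eif1a stood above Eif1ax, with a log2 ratio of 1.35. Eif1ad, which carries an eIF1A-like domain, had 43.8, 48.7 and 42.8 TPM.

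The 3 genes of eIF2, the carrier of the initiator transfer RNA, stood at different levels. Eif2s1 encodes the alpha subunit, whose phosphorylation by stress kinases slows initiation, and had 158, 155 and 176 TPM. Eif2s2, the beta subunit gene, had 45.2, 47.7 and 42.0 TPM. Eif2s3x, the X-linked gene of the gamma subunit that binds GTP, had 28.4, 35.5 and 31.4 TPM. Both steps in this order exceeded 2 SD, at a log2 ratio of 1.86 ± 0.19 for Eif2s1 over Eif2s2 and 0.51 ± 0.14 for Eif2s2 over Eif2s3x. The highest of these 3 genes stood at 5.18 ± 0.707 times the lowest, and at 2.02 ± 0.261 times when only protein-coding transcripts were counted. This is an order of genes and not of subunits, since gamma has a further gene.

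That gene, Eif2s3y on the Y chromosome, was not among the 47. Eif2s3y had 102, 100.3 and 108 TPM, above Eif2s3x in every library. Over all transcripts both gamma genes together had 131, 136 and 139.8 TPM, above Eif2s2 and below Eif2s1 in every library. Over protein-coding transcripts Eif2s1 had 61.5, 61.15 and 66.7 TPM. There Eif2s3y had 63.1, 60.4 and 69.0 TPM and Eif2s3x had 28.0, 35.5 and 31 TPM. Together these gamma genes were then above Eif2s1 in every library. With both gamma genes summed, a choice made after seeing the values, the highest subunit, alpha, stood at 3.65 ± 0.489 times the lowest. Over protein-coding transcripts gamma was the highest, at 2.15 ± 0.215 times the lowest. For Eif2s3x over Eif2s3y the log2 ratio was -1.71 ± 0.19 by TPM, -0.78 by CPM and -1.03 over protein-coding transcripts. In the smaller gene table, where Eif2s3x had almost no counts, it was -7.21. Eif2s3x was led by a transcript of 3647 bases and Eif2s3y by one of 1836 bases. Their coding sequences were identical at 86.3% of 1419 aligned bases. Even so, no run of 50 bases, the read length, in the leading Eif2s3y transcript also occurred in a transcript of another gene. A stretch of 60 bases (positions 301 to 360 of each coding sequence) is shown with the 7 differing bases in capitals to give the distance that reads have to resolve.
Eif2s3x: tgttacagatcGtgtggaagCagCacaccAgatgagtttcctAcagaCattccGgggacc
Eif2s3y: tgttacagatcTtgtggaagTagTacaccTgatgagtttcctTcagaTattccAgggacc

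The eIF2B complex, which exchanges GDP for GTP on eIF2, was encoded by 5 genes, all below 100 TPM. Eif2b2, the beta subunit gene, led with 90.8, 88.3 and 87.5 TPM. Eif2b5, the gene of the catalytic epsilon subunit, had 69.1, 58.6 and 62.1 TPM. Eif2b3, the gamma subunit gene, was lowest with 19.2, 21 and 18.3 TPM. Between them lay Eif2b4 at 53.9 ± 0.171 TPM and Eif2b1 at 35.4 ± 2.09 TPM. Of the 4 neighbouring steps in this order 3 exceeded 2 SD, and the step between Eif2b5 and Eif2b4 did not. The highest subunit stood 4.57 ± 0.315 times above the lowest. The log2 ratio of Eif2s1, the substrate, over Eif2b5, the catalytic subunit, was 1.37 ± 0.16 by TPM and -0.00 over protein-coding transcripts alone.

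Eif2d and Eif2a encode factors that can place an initiator transfer RNA outside the eIF2 route. Eif2d had 52.3, 53.4 and 52.3 TPM. Eif2a, whose product is distinct from the eIF2 alpha subunit in spite of its name, had 22.5, 24.1 and 24.8 TPM.

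Genes of eIF3, the large complex that organises the small subunit for messenger RNA binding, were mostly abundant and close to one another. All 14 were detected, 11 of them at 100 TPM or more, and the median was 154 TPM. Eif3h had 332, 306 and 323 TPM and Eif3k had 308, 332 and 299.5 TPM, with a log2 ratio of Eif3h over Eif3k of 0.03 ± 0.13. Both encode subunits of the structural core. Then came Eif3m at 239.97 ± 1.33 TPM, Eif3e at 221 ± 12.2 TPM and Eif3g at 178 ± 4.04 TPM. Eif3g encodes an RNA-binding subunit.

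From Eif3i to Eif3f, 6 further eIF3 genes had means of 132 to 157 TPM. Eif3i, whose product is a WD-repeat subunit, had 154, 156 and 162 TPM. Eif3b, the scaffold that binds it, had 168, 145 and 155 TPM, and Eif3c had 160.3, 143.5 and 154 TPM. The 3 steps from Eif3i to Eif3b, to Eif3c and to Eif3d were all below 2 SD. Eif3d, which encodes a cap-binding subunit, had 152, 149.7 and 155 TPM. Eif3l had 134, 140.5 and 135 TPM and Eif3f had 133, 134 and 129 TPM. Eif3a, the largest subunit of the complex, was lower at 86.3, 84.3 and 80.2 TPM.

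The loosely bound j subunit, which helps eIF3 dock on the ribosome, is encoded by a pair of nearly identical genes and lay below the rest. Eif3j2 had 36.6, 33.7 and 48.4 TPM and Eif3j1 had 6.81, 8.61 and 8.53 TPM. Eif3j1 over Eif3j2 gave a log2 ratio of -2.30 ± 0.29, and the libraries of the pair did not overlap. Their coding sequences differed at 2 of 786 aligned bases, so few reads from within it can tell the genes apart. Including this pair, the highest eIF3 gene stood 41.7 ± 6.05 times above the lowest. Without it, a choice made after seeing the values, the factor was 3.94 ± 0.0955.

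**Figure D2:**
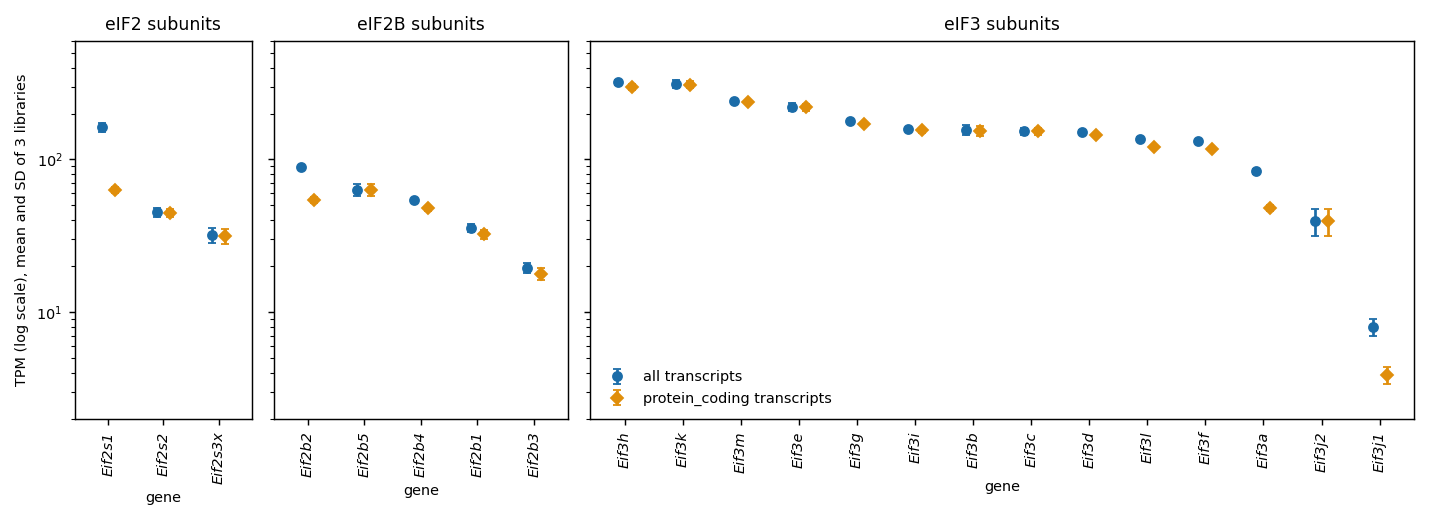
Mean TPM and SD over 3 libraries, on a log axis, for the subunit genes of eIF2, eIF2B and eIF3, with circles for all transcripts and diamonds for transcripts annotated as protein coding. Eif2s1 stands at 163 TPM over all transcripts and 63.1 TPM over protein-coding ones, close to Eif2b5 at 63.3 TPM, while most eIF3 genes hold the same place on both measures.

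In the eIF4A family, the helicase gene Eif4a1 led by TPM. Eif4a1 (ENSMUSG00000059796.16, mm10 chromosome 11, 69666936 to 69672423, minus strand) had 487, 439.7 and 461 TPM. Eif4a2, whose product is interchangeable with it in eIF4F and is also used in messenger RNA repression, had 162, 158 and 149 TPM. Eif4a3, a core protein of the exon junction complex, had 234, 229 and 221 TPM. The log2 ratio of Eif4a1 was 1.56 ± 0.08 over Eif4a2 and 1.02 ± 0.07 over Eif4a3, and the libraries of these genes did not overlap. Over protein-coding transcripts the ratios were 2.85 and 1.24, and in the smaller gene table they reversed to -2.23 and -2.46. Of the cofactors that stimulate the helicase, Eif4h had 221, 219.95 and 219 TPM and Eif4b had 72.4, 65.0 and 68.5 TPM.

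Eif4a1 has a processed pseudogene on chromosome 1, Eif4a-ps4, that matched its coding sequence at 1217 of 1218 aligned bases. By contrast, Eif4a1 and Eif4a2 were identical at 78.1% of 1221 aligned bases. The stretches below are shown because reads of 50 bases meet many differences between the helicase genes and hardly any between Eif4a1 and the pseudogene. For the first pair (positions 295 to 354 of Eif4a1 and 301 to 360 of Eif4a2), capitals mark the 16 differing bases of 60. For the second pair (positions 301 to 360 of each), no base differs and no capitals are used.
Eif4a1: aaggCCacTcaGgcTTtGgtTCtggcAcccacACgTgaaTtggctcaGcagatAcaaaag
Eif4a2: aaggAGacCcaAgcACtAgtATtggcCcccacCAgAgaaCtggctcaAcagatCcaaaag
Eif4a1: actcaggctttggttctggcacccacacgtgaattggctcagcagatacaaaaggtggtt
Eif4a-ps4: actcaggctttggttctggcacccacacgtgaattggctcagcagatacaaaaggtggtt

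Eif4e, which encodes the cap-binding protein, led its family by a small margin. Eif4e (ENSMUSG00000028156.12, mm10 chromosome 3, 138526179 to 138559696, plus strand) had 166, 158 and 166 TPM. Eif4e2, a cap-binding relative known for repressing messenger RNAs, had 144, 126 and 129.97 TPM. Eif4e over Eif4e2 gave a log2 ratio of 0.29 ± 0.08 by TPM and -0.05 ± 0.08 by CPM, so its direction depended on the length correction. In the smaller gene table it was -1.95. Eif4e3, another cap-binding relative, had 44.5, 43.6 and 43.1 TPM, and the log2 ratio of Eif4e over it was 1.90 ± 0.04 by TPM, 0.73 by CPM and 0.35 in the smaller gene table. Eif4enif1, which encodes the protein that carries eIF4E into the nucleus and to processing bodies, had 51.9, 51.4 and 50.2 TPM.

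Among the scaffolds, Eif4g2 was above the members that bind eIF4E, by a margin that depended on the table. Eif4g2 (ENSMUSG00000005610.17, mm10 chromosome 7, 111067750 to 111083030, minus strand) encodes a relative, also called DAP5, that lacks the eIF4E-binding part. It had 644, 626 and 609 TPM. Eif4g1, the main scaffold gene of eIF4F, had 99.1, 85.2 and 88.2 TPM, and Eif4g3 had 65.9, 60.8 and 65.6 TPM. On the log2 scale Eif4g1 gave -2.79 ± 0.09 over Eif4g2 and 0.50 ± 0.08 over Eif4g3. Both exceeded 2 SD, and the libraries of the 3 genes did not overlap. In the smaller gene table Eif4g1 over Eif4g2 was -0.24 and Eif4g1 over Eif4g3 was 0.29.

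The late-acting factors spanned a 174-fold range of mean TPM. Eif5a (ENSMUSG00000078812.10, mm10 chromosome 11, 69916714 to 69921958, minus strand) encodes the hypusine-containing factor, named for initiation and now known to act mainly in elongation. It had 1023, 1008 and 1028 TPM. Its paralog Eif5a2 had 6.67, 6.31 and 4.62 TPM, lowest in library 3, and the log2 ratio of Eif5a over Eif5a2 was 7.46 ± 0.29, or 176-fold, by TPM. It was 5.41 by CPM and 3.84 in the smaller gene table. Eif5, the GTPase-activating factor for eIF2, had 347, 342 and 362 TPM. Eif6, which keeps free large subunits from joining, had 185, 163 and 172 TPM. Eif5b, the joining factor, had 14.7, 14.8 and 14.4 TPM.

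Of the 12 gene pairs, 11 differed by more than 2 SD with the same sign in all libraries. An exact sign-flip test over 3 libraries cannot go below 0.25, so this describes the technical spread only. In the smaller gene table the sign was the opposite in 7 of the 12 pairs. Besides the pairs of Eif4a1, Eif4e over Eif4e2 and Eif1 over Eif1b given above, the log2 ratio there was -0.95 for Eif1a over Eif1ax, 3.23 for Eif3j1 over Eif3j2 and -0.78 for Eif2s1 over Eif2b5. The pairs Eif4e over Eif4e3, Eif4g1 over Eif4g3, Eif4g1 over Eif4g2, Eif5a over Eif5a2 and Eif2s3x over Eif2s3y kept their sign in every measure used.

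**Figure D3:**
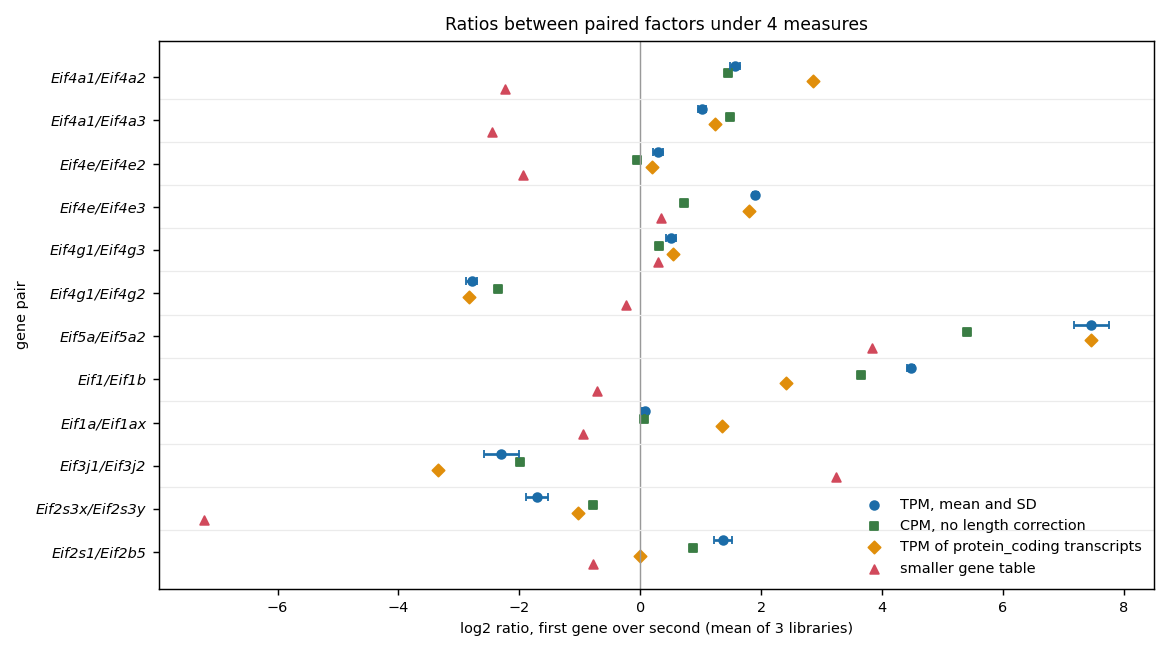
Mean log2 ratio of each gene pair, first gene over second, by TPM (circles, with SD over 3 libraries), CPM (squares), TPM of protein-coding transcripts (diamonds) and the smaller gene table (triangles). The first 3 measures lie on the same side of 0 for all pairs but Eif4e over Eif4e2 and Eif2s1 over Eif2b5, whereas the triangles cross to the other side in 7 pairs.

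The smaller gene table held a lower share of the expected count, in the median, for genes whose sequence recurs elsewhere, though single genes departed from this. Sequence sharing was measured as the share of 50-base windows of a gene's leading transcript that also occur in transcripts of other genes, 50 bases being the read length. The leading transcript was the one with the most TPM. In Eif1, Eif2s1, Eif1ax and Eif3j1 it was a short model holding 9.32% to 30.5% of the gene's expected counts. Sharing by the other transcripts of these genes was not measured. Of the 47 genes, 21 shared no window, 26 shared some and 11 shared 20% or more. Of the 46 detected, 25 (54.3%) shared some, where 45.5% of detected protein-coding genes did, and 11 (23.9%) shared 20% or more, where 14.4% did. Among the 46 detected genes, the smaller-table count was a median of 48.4% of the expected count in genes with no shared window, 27.3% in genes with some under 20%, and 8.04% in genes with 20% or more. Abundance also moved with these classes, with median expected counts of 3903, 4494 and 5716, and the part of each was not tested. In the larger table, 31 of the 46 had reads that its own estimate could not place with certainty (a posterior SD above 0), where 55.5% of detected protein-coding genes did.

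Eif3j2 shared 91.8% of windows, chiefly with Eif3j1, and had 2, 4 and 4 counts in the smaller table against 1657, 1624 and 2630 expected counts. Eif4a1 shared 65.3%, and Eif4a-ps4 alone held 64.9%. It had 264, 262 and 239 counts in the smaller table against 15705, 14844 and 17656 expected counts. Eif1, whose leading transcript is short, shared 62.6% of windows with 13 other genes, and 45.2% with Emd. Eif2s3x shared 36.2% with the pseudogene Gm2223 and had 14, 14 and 9 counts in the smaller table. Eif2s2 shared 27.8% with the pseudogene Gm9892, which had a mean of 22.8 TPM against 45.0 TPM for Eif2s2. The part of this in the order of the eIF2 genes was not tested. Eif3m shared 40.0% and Eif4e 38.1%. Eif5a was low in the smaller table as well, at 3.07% of its expected count, with 8.18% of windows shared. The leading transcript of Eif4g2 shared no window, yet the gene had a mean of 5530 counts there against 39393 expected counts. The median of detected genes with no shared window was 48.4% of the expected count. Why Eif4g2 was low in the smaller table was not tested.

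**Figure D4:**
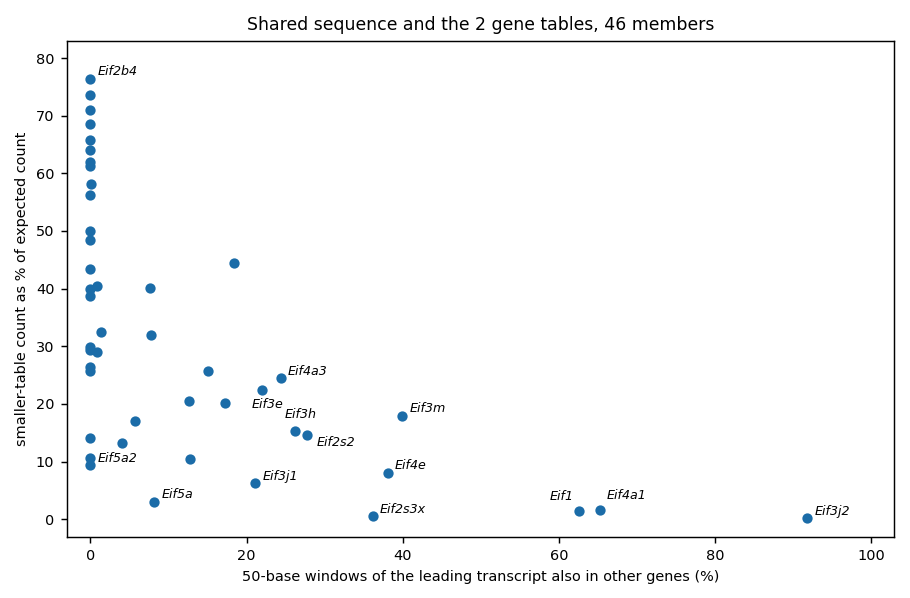
Smaller-table count as a percentage of the expected count against the percentage of 50-base windows shared with other genes, for the 46 detected genes, each point the mean over 3 libraries. The 11 genes with 20% or more shared windows all lie at 24.4% or below, while genes with none range from 9.33% for Eif5a2 to 76.4% for Eif2b4.

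The share of the level assigned to transcripts not annotated as protein coding was close to that of other genes. The leading transcript by TPM was of another class in 6 of the 46 detected genes, where 11.9% of detected protein-coding genes had such a leader. These were Eif1, Eif1ax, Eif2a, Eif2s1, Eif3j1 and Eif5b. Over detected genes the median share on protein-coding transcripts was 91.3%, against 88.1% over all detected protein-coding genes. With Eif4a2 added, 7 of the 46 had less than 50% on protein-coding transcripts, where 14.3% of detected protein-coding genes did.

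In 4 of these genes the leader was a short model. Eif1-202, a processed transcript of 383 bases, held 50.6% ± 2.03 of Eif1 TPM, with 25.4% ± 1.35 on Eif1-203 and 21% ± 2.58 on the protein-coding Eif1-201. Eif2s1-203, a processed transcript of 433 bases, held 60.5% ± 0.823 of Eif2s1 TPM and the coding Eif2s1-201 38.7% ± 0.787. Eif1ax-202, a retained-intron model of 416 bases, held 58.9% ± 1.88 and the coding Eif1ax-201 41.1% ± 1.88. Eif3j1-202, of 594 bases, held 51.4% ± 1.96. TPM divides by length, so short models weigh more. By expected counts these leaders held 30.5%, 15.0%, 9.32% and 9.73% of their genes, and the coding transcript led each of them.

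In Eif2a and Eif5b the leader was long and led by either weight. Eif2a-207, a target class of nonsense-mediated decay, held 54.8% ± 7.52 of Eif2a TPM and 53.8% of its counts, and the coding Eif2a-201 held 28.6% ± 13.6 of TPM. Eif5b-202, a retained-intron transcript of 5788 bases, held 63.5% ± 9.65 of Eif5b TPM, and the coding Eif5b-201 held 33.8% ± 6.21. Eif4a2 was spread over many models. The coding Eif4a2-202 held 34.9% ± 1.37 of its TPM, all retained-intron models 33.9% ± 1.20 and all nonsense-mediated decay models 30.9% ± 1.23. Eif4a2-210, at 14.8% ± 3.90, and Eif4a2-216, at 13.1% ± 1.01, were the most abundant of these, and Eif4a2-204, Eif4a2-217, Eif4a2-205 and Eif4a2-218 held 6.44% to 8.47% each.

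Among the other paired genes, Eif4e was led by short protein-coding models, with Eif4e-205 at 48.5% ± 3.72, Eif4e-206 at 30.7% ± 2.98 and the 4991-base Eif4e-201 at 11.7% ± 0.476 of TPM. By expected counts Eif4e-201 led with 52.9%. Eif5a was split over Eif5a-209 at 52.0% ± 3.32, Eif5a-210 at 23.4% ± 1.17, Eif5a-213 at 15.8% ± 3.25 and Eif5a-206 at 7.13% ± 0.655, all protein coding. Eif4g1 had no steady leader: Eif4g1-216 held 32.2% ± 1.76 of TPM and Eif4g1-202 held 19.1%, 17.2% and 35.7% in the 3 libraries, above Eif4g1-216 in library 3. By expected counts Eif4g1-202 led with 32.3% against 24.6%. Eif4g2-206 held 68.6% ± 1.64 of Eif4g2, Eif4a1-213 held 86.0% ± 1.82 of Eif4a1 and Eif4a3-201 held 73.6% ± 1.87 of Eif4a3. Eif4a3-203, a processed transcript, held 23.6% ± 1.71 of Eif4a3. Eif1b, Eif3j2, Eif4e3, Eif5a2 and Eif2s3x were each at least 99.1% on a protein-coding leader.

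In the remaining pairs the TPM was divided among several models. Eif1a was all protein coding, with Eif1a-201 at 44.3% ± 4.42, Eif1a-208 at 24.9% ± 8.24, Eif1a-203 at 19.1% ± 9.85 and Eif1a-202 at 8.54% ± 7.14. These SDs were wide, so the split within Eif1a was less certain than its total. Eif4e2-204 held 71.2% ± 2.35 of Eif4e2, and 3 other coding models held 5.08% to 11.03% each. Eif4g3 was split between the long coding models Eif4g3-205 at 39.0% ± 4.07 and Eif4g3-215 at 33.5% ± 4.35. Eif2b5-201 held 79.4% ± 3.99 of Eif2b5, and Eif2b5-202 14.8% ± 3.92. Eif2s3y-201 held 61.9% ± 1.74 of Eif2s3y, and the retained-intron model Eif2s3y-205 21.8% ± 0.955.

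**Figure D5:**
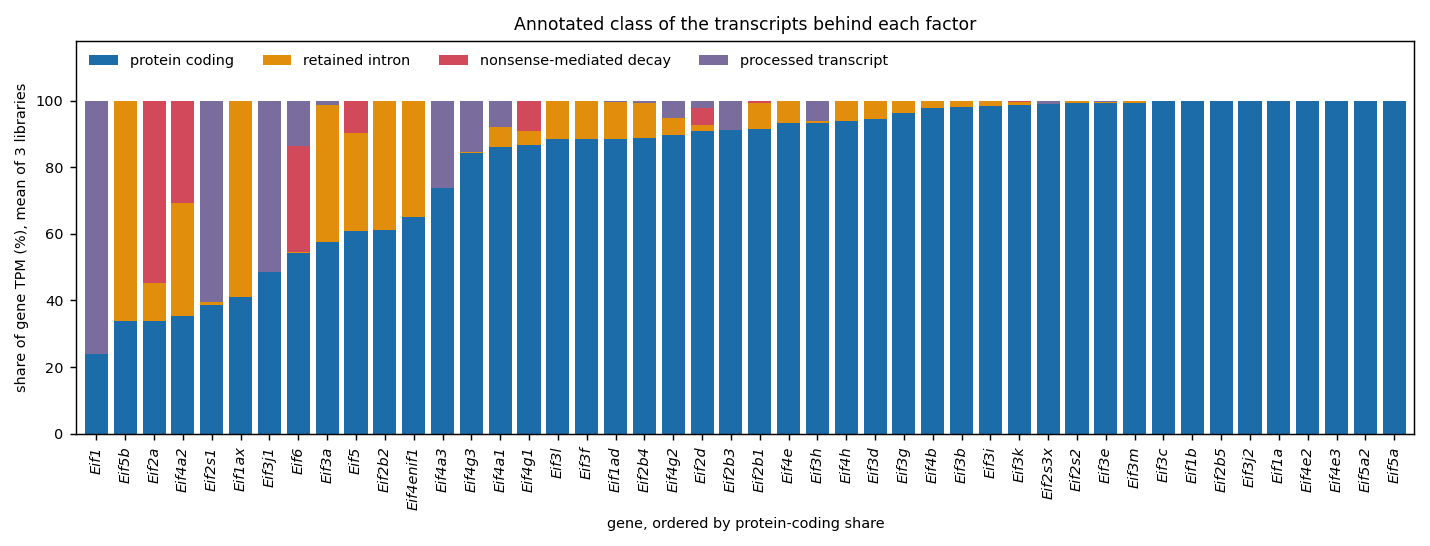
Share of each detected gene's TPM, in percent and as the mean of 3 libraries, by annotated transcript class, with genes ordered by their protein-coding share. Eif1 is lowest at 24.0%, Eif5b, Eif2a, Eif4a2, Eif2s1, Eif1ax and Eif3j1 lie below 50%, and the median gene is at 91.3%.

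The factors were called as varying between libraries about as often as all tested genes, though this comparison was not matched for count depth. A chi-square test of equal shares, with Benjamini-Hochberg adjustment over all genes, called 30 of the 46 tested, where 65.8% of all 15945 tested genes were called. Without library 2 it called 19, and 5 in the smaller gene table. The share over all genes was not computed for either. With the statistic divided by the overdispersion common to all genes (8.61), only Eif3j2 was called (adjusted p = 0.0131), where 1.85% of all tested genes were. Eif3j2 shared 91.8% of windows, chiefly with Eif3j1, so the expected counts of this pair depend on how shared reads were divided. The part of this in their spread was not tested. A spread of at least 10% beyond counting noise was seen in 4 of the called genes, where 37% of all tested genes, including those with few counts, had one. These were Eif3j2 at 19.2%, Eif5a2 at 18.2%, Eif2s3x at 12.9% and Eif3j1 at 12.4%. Eif3j2 was highest in library 3, Eif5a2 lowest in library 3, and Eif2s3x and Eif3j1 lowest in library 1. The median spread beyond counting noise was 3.77% over detected factors, against 4.91% over the 6387 genes with at least 1000 expected counts, a level that 42 of the factors reached.

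Promoter sequences of 250 bases before to 50 after the annotated start (RefSeq, build GRCm38.p6) were found for 37 of the 47 genes. Each of the 37 entered with a single promoter, even where it had several, as Eif5a with 6. The shares given for comparison, here and below, count every promoter. For detected protein-coding genes these were 10583 promoters of 8281 genes. Shares are thus per gene for the 37 and per promoter for the comparison, and a per-gene comparison was not made. The E-box CACGTG, the same on both strands and the site that Myc with its partner Max is known to bind, occurred in 9 of 37 promoters (24.3%). It occurred in 7.15% of all 32851 promoters and in 10.2% of the 10583 promoters of detected protein-coding genes. The 9 genes were Eif4e, Eif4a1, Eif4g1, Eif4h, Eif3a, Eif3f, Eif3k, Eif1b and Eif5a2. They held 12 E-boxes, none overlapping the other motifs searched. The GC box GGGCGG, on either strand, occurred in 78.4% of the 37, against 63.4% of promoters of detected genes and 35.7% of all. CCAAT occurred in 29.7% against 37.4% of all promoters, and TATAAA in 8.11% against 13.6%, each on either strand. The share in promoters of detected genes was not computed for CCAAT or TATAAA.

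Eif4e, Eif4a1 and Eif4g1, which encode the 3 core parts of eIF4F, had an E-box. No E-box was found in the promoters used for their paralogs Eif4a2, Eif4a3, Eif4e2 and Eif4g3. Eif4g2 and Eif4e3 had no matched promoter. The start used lay 106 bases from that of the leading coding transcript in Eif4a1, 291 in Eif4a2 and 347 in Eif4e2. In Eif4e, Eif4g1, Eif4a3 and Eif4g3 it lay within 50 bases. The motif was therefore not found in all promoters used for these families, and other starts of these genes were not searched. The 5 boxes are shown in capitals with 12 bases on either side, written 5′ to 3′ on the strand of the gene. They begin at positions -228 and -64 in Eif4e, -189 in Eif4a1 and -54 and 15 in Eif4g1, counted from 0 at the annotated start.
Eif4e, chr3:138527028-138527057, plus strand: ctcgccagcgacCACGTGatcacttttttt
Eif4e, chr3:138527192-138527221, plus strand: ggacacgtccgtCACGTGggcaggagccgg
Eif4a1, chr11:69672595-69672624, minus strand: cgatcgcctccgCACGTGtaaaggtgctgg
Eif4g1, chr16:20672661-20672690, plus strand: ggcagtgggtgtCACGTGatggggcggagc
Eif4g1, chr16:20672730-20672759, plus strand: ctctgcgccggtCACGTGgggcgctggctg

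Transcripts of ribosomal proteins and elongation factors often begin with a C followed by pyrimidines, the motif through which the growth regulator mTOR controls their translation. A C at the annotated start followed by at least 4 pyrimidines was found in 2 of 37 promoters (5.41%), against 2.51% of all promoters. The genes were Eif3f and Eif2s3x, shown over 20 bases before the start and 20 from it, with the run from the start in capitals. Allowing the run to begin within 5 bases of the start, 9 of 37 (24.3%) had one, against 18.3% of all promoters. Neither share was computed for promoters of detected genes alone. A match describes these letters only, and annotated starts may differ from those used in these cells.
Eif3f, chr7:108934395-108934434, plus strand: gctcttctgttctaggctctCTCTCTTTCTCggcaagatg
Eif2s3x, chrX:94212632-94212671, minus strand: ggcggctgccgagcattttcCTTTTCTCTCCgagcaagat

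Genes that regulate or follow the initiation factors were all detected as well. Of 7 regulators of eIF4E and its partners, Mknk2, the kinase that phosphorylates eIF4E, was highest at 227, 198 and 203 TPM, and Eif4ebp3, a gene of an inhibitor that sequesters eIF4E, was lowest at 8.64, 8.89 and 6.14 TPM. Of 8 genes of the eIF2 kinases and their response, Atf4, the transcription factor translated when eIF2 is phosphorylated, was highest at 77.2, 76.6 and 82.4 TPM. The amino acid sensor kinase gene Eif2ak4 was lowest there at 5.31, 3.49 and 4.40 TPM. Of 5 genes of poly(A)-binding proteins and their interaction partners, the partner gene Paip2 was highest at 285 ± 18.5 TPM. The poly(A)-binding protein gene Pabpc4 was lowest at 8.46 ± 1.29 TPM. Of 7 further initiation and recycling genes, Mcts1 was highest at 122 ± 2.60 TPM and the helicase gene Dhx29 lowest at 22.6 ± 2.35 TPM. Of 9 elongation and release genes, Eef1a1, which delivers aminoacyl transfer RNAs, reached 3181 ± 71.1 TPM, above Eif1, and Eef2k, the kinase that inhibits elongation factor eEF2, was lowest at 6.67 ± 0.954 TPM.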

How the data were processed

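For each library the authors deposited expected counts and TPM per gene (the larger gene table) and per transcript, made on mm10 with GENCODE M21 per the submitters' file notes. Deposited expected counts divide a read among the genes it fits and were rounded to whole numbers for tests. The smaller gene table holds whole-number counts deposited by the authors, on mm10 with GENCODE M4. Not given in the sources used here: the aligner, the quantification program, the strand of counting and how the smaller table handled shared reads. Of the 47 genes, 25 overlap another gene, 14 of them on the other strand, and reads of such genes may be mixed.

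Rows that matched no annotated gene held 0.125%, 0.182% and 0.155% of expected counts in libraries 1, 2 and 3 and were left out. Smaller-table totals were 8827129, 8758421 and 9555924 counts.

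Detection required 1 TPM or more in each of the 3 libraries. CPM was an expected count scaled to the library total. The chi-square test (2 degrees of freedom, adjusted p under 0.05) used genes with a summed count of at least 30 and was tested on simulated data. Those data held counting noise only, so they do not show how the test behaves under the overdispersion of these libraries. Spread beyond counting noise was the square root of the variance of scaled counts minus their mean, over the mean. A log2 ratio between paired genes was called when its 3 values shared a sign and their mean exceeded 2 SD. The longest coding sequence of each gene in GENCODE M21 was aligned. Factors of edgeR 4.0.16 (TMM) and DESeq2 1.42.0 served as alternative scalings only (R 4.3.3), with Python 3.11.15, pandas 2.3.3 and scipy 1.17.1 elsewhere.

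The genes with values in each library are those at 100 TPM or more, in a pair, not detected, or highest or lowest of their complex. Of the pathway lists the highest and lowest genes are given, and transcripts were named from a share of 5%. The members were picked by name alone, but members, pairs and lists were all chosen with earlier results of these data known. Alternatives covered thresholds, scalings, measures, tables and leaving out each library.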

Additional observations from a re-analysis of the deposited data

Results flagged for a closer look

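Reads were also assigned to annotated pseudogenes named after initiation factors, which the comparisons above did not use. Of 10 such pseudogenes, 6 had mean expected counts above 3. Eif4a-ps4 (chromosome 1, 60703932 to 60705149, plus strand) had 67.4, 80.5 and 84.3 TPM in the 3 libraries, a mean of 77.4 TPM, from 1532, 1948 and 2301 expected counts. Eif1-ps1 had a mean of 2.77 TPM, Eif1-ps2 1.42 TPM, Eif5al3-ps 1.04 TPM, Eif3s6-ps1 0.733 TPM and Eif3s6-ps2 0.493 TPM. The coding sequence of Eif4a1 and the matching part of Eif4a-ps4 differed at 1 of 1218 bases.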

How the results depend on the processing

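Of 133 values recomputed under an alternative, 105 were classed as the same. Ratios in that class kept their direction and call, and medians and folds stayed within the spread. Counts of genes have no such spread. The 22 and 21 factors called as varying without library 1 or 3 were classed as the same as the main 30. By the smaller gene table the log2 ratio reversed to -2.23 for Eif4a1 over Eif4a2, -2.46 for Eif4a1 over Eif4a3, -1.95 for Eif4e over Eif4e2, -0.71 for Eif1 over Eif1b, -0.95 for Eif1a over Eif1ax, 3.23 for Eif3j1 over Eif3j2 and -0.78 for Eif2s1 over Eif2b5. By CPM it was -0.0518 for Eif4e over Eif4e2. Over protein-coding transcripts it was -0.00119 for Eif2s1 over Eif2b5, and 1.35 for Eif1a over Eif1ax, past 2 SD. Leaving out each library gave 0.0532 to 0.0881 for Eif1a over Eif1ax, past 2 SD without library 2. The median was 111 TPM over detected factors, 115.9 CPM without length correction, and 106 TPM rescaled over nuclear protein-coding genes. Factors called as varying numbered 1 with the overdispersion, 5 in the smaller table, and 19 to 22 when each library was left out, with 19 without library 2. Apart from the count with the overdispersion, the share over all genes was not computed for these. The fold from highest to lowest gene was 2.37 (CPM) and 2.02 (protein-coding transcripts) for eIF2, 3.58 (protein-coding transcripts) for eIF2B, and 19.5 and 81.7 on these measures for eIF3. Without Eif3j1 and Eif3j2, an alternative chosen after seeing the data, it was 3.94 by TPM, 2.62 by CPM and 6.51 over protein-coding transcripts. With Eif2s3x and Eif2s3y summed, also chosen after seeing the data, it was 3.65 for eIF2, and 2.15 over protein-coding transcripts. Factors led by a transcript not annotated protein coding numbered 2 by expected counts, a weight for which the share over all detected genes was not computed. The cause of these changes was not tested. No paired analysis was possible because all libraries belong to 1 group. With 3 libraries of 1 biosample, no value shows the spread between mice, and a few counts limit Eif4e1b.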
